A study of Mus musculus with 12 samples.

Results

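The apical endocytic receptors of the kidney proximal tubule were followed through 8 genes, chosen by name: Lrp2, Cubn, Amn, Lrpap1, Dab2, Myo6, Clcn5 and Ocrl. They are 8 of the 18193 genes that the array annotation names by 1 symbol, and each was represented by its probe set of highest mean over the 12 arrays. The 8 genes have 24 probe sets in all, of which 21 passed the filter on low signal (above 4, log2, on at least 3 arrays), and every gene had at least 1 that did. RNA came from proximal tubules isolated on Percoll from mice aged 20 weeks on a normal diet, with 3 arrays in each of 4 groups. The dB/dB catalase-Tg group carries the dB/dB leptin receptor mutation and a catalase transgene, and the dB/dB group carries the mutation without the transgene. The catalase-Tg group carries the transgene without the mutation, and the wild type group carries neither. Mice with the dB/dB mutation lack a working long leptin receptor and become obese and diabetic. Published descriptions of these mice, rather than the labels, give the transgene as rat catalase driven by the kidney androgen-regulated protein (Kap) promoter, active in proximal tubule cells. The labels give neither sex nor the number of mice behind a sample, and do not state that a group's samples are different animals. The p-values below therefore cover the variation among these samples alone, part of which may be technical.

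The proximal tubule recovers filtered proteins, vitamins and hormones by receptor-mediated endocytosis at its brush border. Megalin (Lrp2), a giant member of the LDL receptor family, and cubilin (Cubn), which has no transmembrane segment and depends on amnionless (Amn) for its transport to the surface, bind albumin, vitamin-binding proteins and many other ligands. Receptors are gathered into clathrin-coated pits, carried to acidified endosomes where ligands are released, and recycled, while ligands go on to lysosomes. Loss of single components causes human disorders in which protein can be lost in the urine. They are LRP2 in Donnai-Barrow syndrome, CUBN and AMN in Imerslund-Gräsbeck syndrome, CLCN5 in Dent disease and OCRL in Lowe syndrome.

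Within a group, arrays differed in the signal of markers of proximal tubule and of other cells. Proximal tubule markers were present throughout, with 24 of 24 named on the array past the filter and 23 of them above 4 on all 12 arrays. Markers of other kidney cells were present too: of those on the array, 14 of 14 endothelial, 7 of 7 podocyte, 12 of 14 loop of Henle and distal tubule, 8 of 12 fibroblast and mural, 5 of 12 collecting duct and 5 of 11 leukocyte markers passed the filter. The collecting duct markers Aqp2, Aqp4, Scnn1g and Avpr2 and the leukocyte markers Cd68, Itgam, Adgre1, Cd3e and Cd79a were below 4 on all 12 arrays. A score, the mean log2 difference of a list from its mean over the 12 arrays, summarises each list on an array. The endothelial score was 1.55, -0.88 and -1.24 on dB/dB catalase-Tg 1, 2 and 3, then 1.52, 0.90 and 1.91 on the dB/dB arrays, -0.09, -1.96 and -1.78 on the catalase-Tg arrays and 1.62, -1.55 and 0.01 on the wild type arrays. Wild type 1 and dB/dB catalase-Tg 1 thus stood with the dB/dB arrays in endothelial signal, and apart from the other arrays of their own groups. The difference between the 3' and 5' control probe sets of Gapdh, a sign of RNA integrity, ran from -0.11 to 0.61, highest on dB/dB 2 and 0.18 on wild type 1. Xist, a transcript of female cells, read 11.91 on wild type 2, 6.72 on wild type 3 and at most 2.67 on the other 10 arrays. In tissue RNA, fewer cells of a type and less RNA per cell cannot be told apart, and the part of cell makeup, RNA quality or sex in the differences below was not tested beyond the values given.

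Lrp2 encodes megalin, the main receptor of the pathway. It read 11.88, 12.95 and 12.71 (log2 expression) in dB/dB catalase-Tg, 11.46, 11.70 and 11.75 in dB/dB, 12.56, 13.08 and 13.26 in catalase-Tg, and 10.39, 13.36 and 12.62 in wild type. The dB/dB arrays lay close together, whereas wild type held both the lowest and the highest array of all 12. Group means were 12.51 ± 0.56 in dB/dB catalase-Tg, 11.63 ± 0.16 in dB/dB, 12.97 ± 0.36 in catalase-Tg and 12.12 ± 1.55 in wild type (SD, n = 3 each). A second bright probe set was likewise lowest on wild type 1, at 9.99, and highest on wild type 2, at 12.96. The third, dimmer one differed at its top, with catalase-Tg 1 highest at 6.99 and wild type 1 lowest at 4.34. By mean signal the Lrp2 probe set stood at percentile 98.0 of the 18144 probe sets tested, so the gene is well measured on these arrays.

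**Figure D1:**
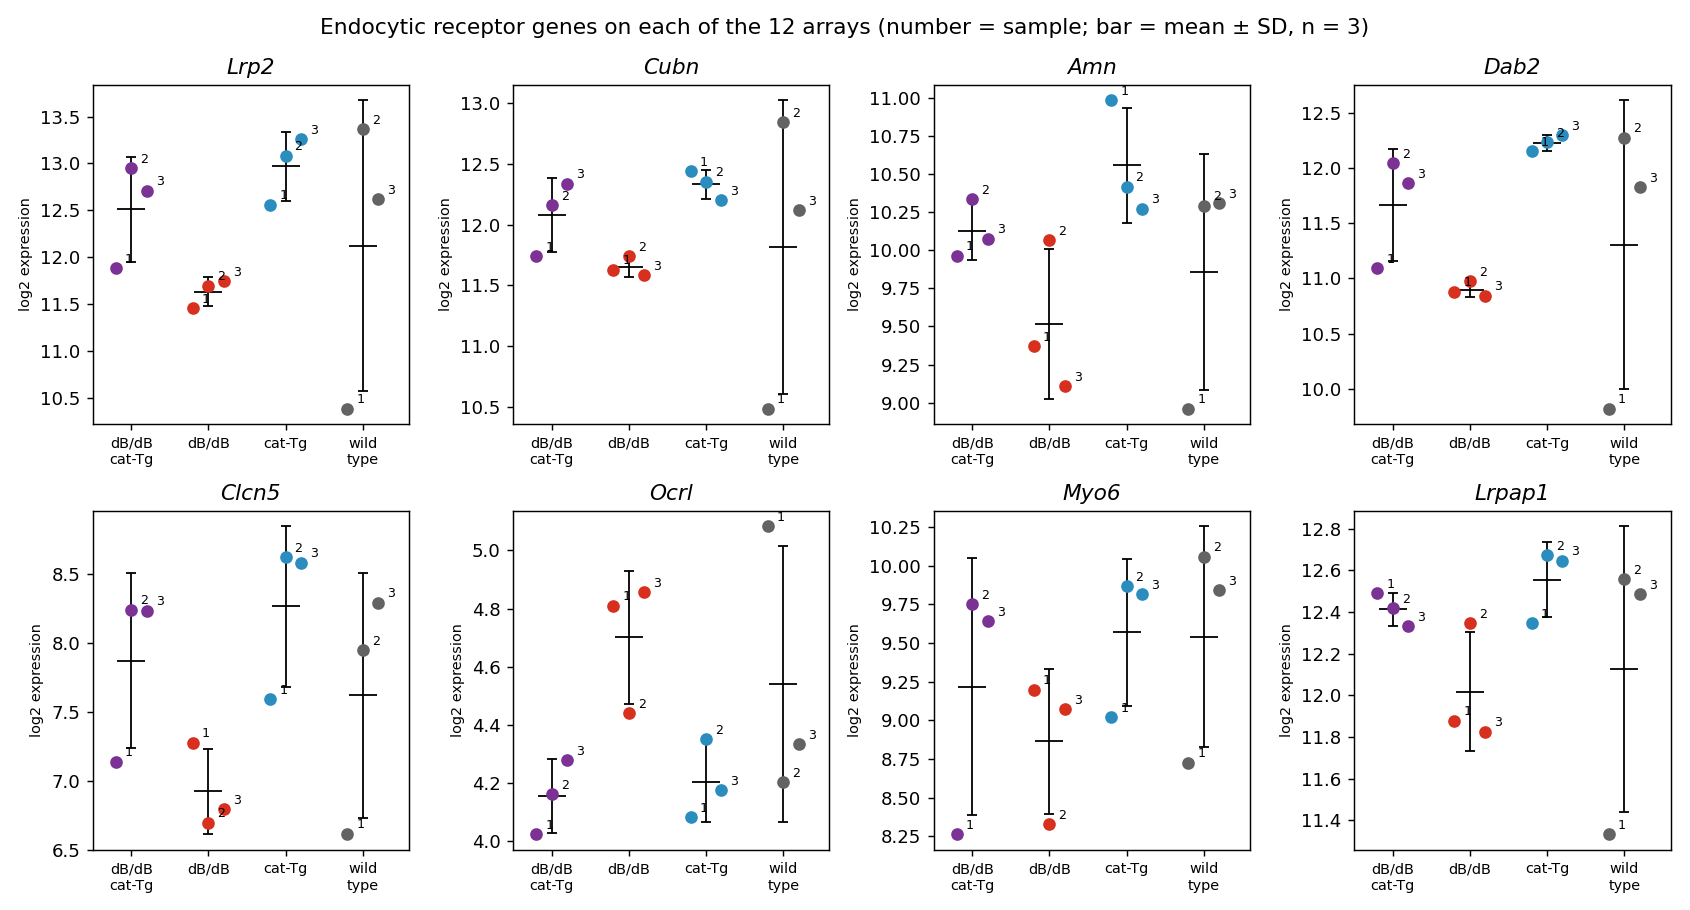
Log2 expression (vertical axis) of the 8 genes on each array, by group from left to right: dB/dB catalase-Tg, dB/dB, catalase-Tg (written cat-Tg) and wild type. Numbers are the sample numbers and bars show the mean ± SD of 3 arrays. For 6 of the 8 genes wild type 1 is the lowest array, and for Ocrl it is the highest at 5.08.

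Cubilin read 11.74, 12.16 and 12.34 in dB/dB catalase-Tg, 11.63, 11.74 and 11.58 in dB/dB, 12.44, 12.36 and 12.20 in catalase-Tg and 10.48, 12.85 and 12.12 in wild type. The dB/dB arrays lay close together, while wild type held both the lowest and the highest array. The other Cubn probe set gave 10.13 on wild type 1 and 12.70 on wild type 2, again the ends of its range. Amn, the membrane partner of cubilin, read 9.96, 10.34 and 10.08 in dB/dB catalase-Tg, 9.37, 10.07 and 9.11 in dB/dB, 10.98, 10.42 and 10.27 in catalase-Tg and 8.96, 10.29 and 10.31 in wild type. Its highest array was catalase-Tg 1, which was below the other 2 catalase-Tg arrays for Lrp2. Lrpap1, the receptor-associated protein that escorts megalin through the endoplasmic reticulum, had the narrowest spread of the bright genes, 1.34 over the 12 arrays. It read 12.49, 12.42 and 12.33 in dB/dB catalase-Tg, 11.88, 12.35 and 11.83 in dB/dB, 12.35, 12.67 and 12.65 in catalase-Tg and 11.33, 12.56 and 12.48 in wild type.

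Dab2, the clathrin adaptor that binds the tail of megalin, followed the receptor most closely. It read 11.09, 12.04 and 11.86 in dB/dB catalase-Tg, 10.88, 10.97 and 10.84 in dB/dB, 12.15, 12.23 and 12.29 in catalase-Tg and 9.82, 12.27 and 11.82 in wild type. The 3 dB/dB arrays spread by SD 0.07, as did the 3 catalase-Tg arrays. Wild type 1 lay below every other array. A dimmer Dab2 probe set, the fourth by mean, read 4.56, 6.42 and 6.06 in dB/dB catalase-Tg and 7.97, 7.63 and 6.78 in catalase-Tg. Myo6, the motor that moves endocytic vesicles inward from the microvilli, read 8.26, 9.75 and 9.64 in dB/dB catalase-Tg, 9.20, 8.33 and 9.07 in dB/dB, 9.02, 9.87 and 9.82 in catalase-Tg and 8.73, 10.06 and 9.84 in wild type. Its lowest arrays were dB/dB catalase-Tg 1 and dB/dB 2, so it departed here from Lrp2, which was lowest on wild type 1.

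Clcn5, the endosomal chloride-proton exchanger, read 7.14, 8.24 and 8.23 in dB/dB catalase-Tg, 7.28, 6.70 and 6.79 in dB/dB, 7.59, 8.62 and 8.58 in catalase-Tg and 6.61, 7.95 and 8.29 in wild type. In each of the 3 groups other than dB/dB, sample 1 lay below the other 2. Ocrl, an inositol polyphosphate 5-phosphatase of endosomes and the Golgi, was the exception in level. In direction it was the exception in the comparisons of 2 groups below, save dB/dB catalase-Tg against catalase-Tg, where all 8 genes lay below 0. Ocrl read 4.02, 4.16 and 4.28 in dB/dB catalase-Tg, 4.81, 4.44 and 4.86 in dB/dB, 4.08, 4.35 and 4.17 in catalase-Tg and 5.08, 4.20 and 4.33 in wild type. These values lie just above the filter of 4, and its other 2 probe sets lay at 2.30 to 2.78 on every array, near the floor of the data at 2.302, so the size of any Ocrl difference is limited by background.

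Upstream sequences of Lrp2, Cubn and Ocrl show how the promoters of the paired receptors, and of the gene that mostly ran against them, differ in letters. The 250 bases before the RefSeq gene start are printed 5′ to 3′ on the gene's strand (GRCm38.p6), with matches to the motifs searched in capitals. They lie at chr2:69586030-69586279 (Lrp2, minus strand), chr2:13491877-13492126 (Cubn, minus strand) and chrX:47912206-47912455 (Ocrl, plus strand).
Lrp2: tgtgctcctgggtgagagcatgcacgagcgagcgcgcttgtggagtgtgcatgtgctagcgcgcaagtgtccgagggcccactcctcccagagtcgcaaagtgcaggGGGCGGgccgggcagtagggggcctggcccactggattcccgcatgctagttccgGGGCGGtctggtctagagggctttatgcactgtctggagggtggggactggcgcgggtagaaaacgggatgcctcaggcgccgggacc
Cubn: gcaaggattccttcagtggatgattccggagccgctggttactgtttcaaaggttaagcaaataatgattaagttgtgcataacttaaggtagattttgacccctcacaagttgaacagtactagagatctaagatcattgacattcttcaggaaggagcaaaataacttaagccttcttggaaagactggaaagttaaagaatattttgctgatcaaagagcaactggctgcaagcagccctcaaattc
Ocrl: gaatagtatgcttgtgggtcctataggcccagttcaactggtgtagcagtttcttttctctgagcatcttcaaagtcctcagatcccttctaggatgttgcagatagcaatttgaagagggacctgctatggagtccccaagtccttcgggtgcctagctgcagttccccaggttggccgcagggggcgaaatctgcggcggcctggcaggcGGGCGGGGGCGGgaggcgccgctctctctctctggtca
Each motif was searched on both strands. GGGCGG is the GC box bound by Sp1. The TATA box was taken as TATAAA. For HNF1, a liver and kidney factor, part of its site was searched as GTTAAT. For HNF4 the site CAAAGTCCA was used. The E-box was CACGTG. Lrp2 and Ocrl held 2 GC boxes each and Cubn held none of the 5 motifs. GC content was 66.4% for Lrp2, 39.6% for Cubn and 57.6% for Ocrl, against a median of 52.4% over 32851 promoters. All 8 genes matched, with 10 promoters in all. Myo6 held 7 GC boxes, Lrpap1 held 5, Amn held 1 beside an E-box, 1 of the 2 Dab2 promoters held an HNF1 motif, and the 2 Clcn5 promoters held a TATA box and a GC box. Of all promoters in the table, 32.7% held the GC box, 12.4% the TATA box, 6.43% the HNF1 motif, 0.384% the HNF4 site and 6.02% the E-box. A match describes letters only.

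What the leptin receptor mutation does to these genes was asked first by dB/dB against wild type. No gene of the 8 passed limma's threshold of adjusted p under 0.05, where 0% of all probe sets were called, and none was under an unadjusted p of 0.05, where 4.16% of all were. Differences ran from -0.70 for Clcn5 to 0.16 for Ocrl, with 7 of 8 below 0 and a median of -0.37, beside 62% below 0 and a median of -0.11 for all 18144 probe sets. By the probe set of highest mean, groups overlapped for every gene. Of all probe sets, 11.4% did not overlap, 2.52% higher and 8.91% lower in dB/dB. The second Myo6 probe set, at -0.68, was lower without overlap, 6.79 to 7.82 in dB/dB against 7.96 to 8.34 in wild type. The third, at -0.043, overlapped. Lrp2 differed by -0.49 (log2, SE 0.62, 95% interval -1.87 to 0.88, adjusted p = 0.795), Cubn by -0.16 (interval -1.20 to 0.87) and Dab2 by -0.41 (interval -1.56 to 0.75). The interval for Lrp2 thus allows anything between a level 0.274 times and 1.85 times that of wild type. Beside the -0.70 for Clcn5, its other probe sets past the filter gave -0.40 and -0.24.

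The wild type arrays set the size of these differences. Leaving out wild type 1 moved Lrp2 to -1.36, Dab2 to -1.15, Cubn to -0.83 and Clcn5 to -1.20, short of the threshold (lowest adjusted p = 0.0834, for Dab2). Leaving out wild type 2 instead moved Lrp2 to 0.13 and Cubn to 0.35. The arrays of lowest weight in a weighted fit were dB/dB catalase-Tg 1, catalase-Tg 1 and wild type 1. These weights were estimated from the same values, by how far an array lay from its group mean. Leaving such arrays out therefore narrows the spread within groups. With these arrays left out together, 5 of 8 genes passed, all lower in dB/dB. They were Lrp2 (-1.36, adjusted p = 0.00709), Dab2 (-1.15, adjusted p = 0.00427), Clcn5 (-1.20, adjusted p = 0.00688), Myo6 (-1.08, adjusted p = 0.0195) and Cubn (-0.83, adjusted p = 0.0269). In that fit 26.9% of all probe sets passed, and wild type was left with wild type 2 and 3, the arrays on which Xist was read. With the score of podocyte, endothelial and mural markers as a covariate, on all 12 arrays, the difference became 0.21 for Lrp2 and 0.32 for Cubn. With the proximal tubule score as the covariate instead, it was -0.41 for Lrp2, -0.34 for Dab2, -0.64 for Clcn5 (adjusted p = 0.211) and -0.62 for Myo6 (adjusted p = 0.281), close to the values without a covariate. Beside these values, the proximal tubule score was -0.62 to -0.29 in dB/dB and -1.99 to 0.56 in wild type, and the endothelial score 0.90 to 1.91 in dB/dB and -1.55 to 1.62 in wild type.

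**Figure D2:**
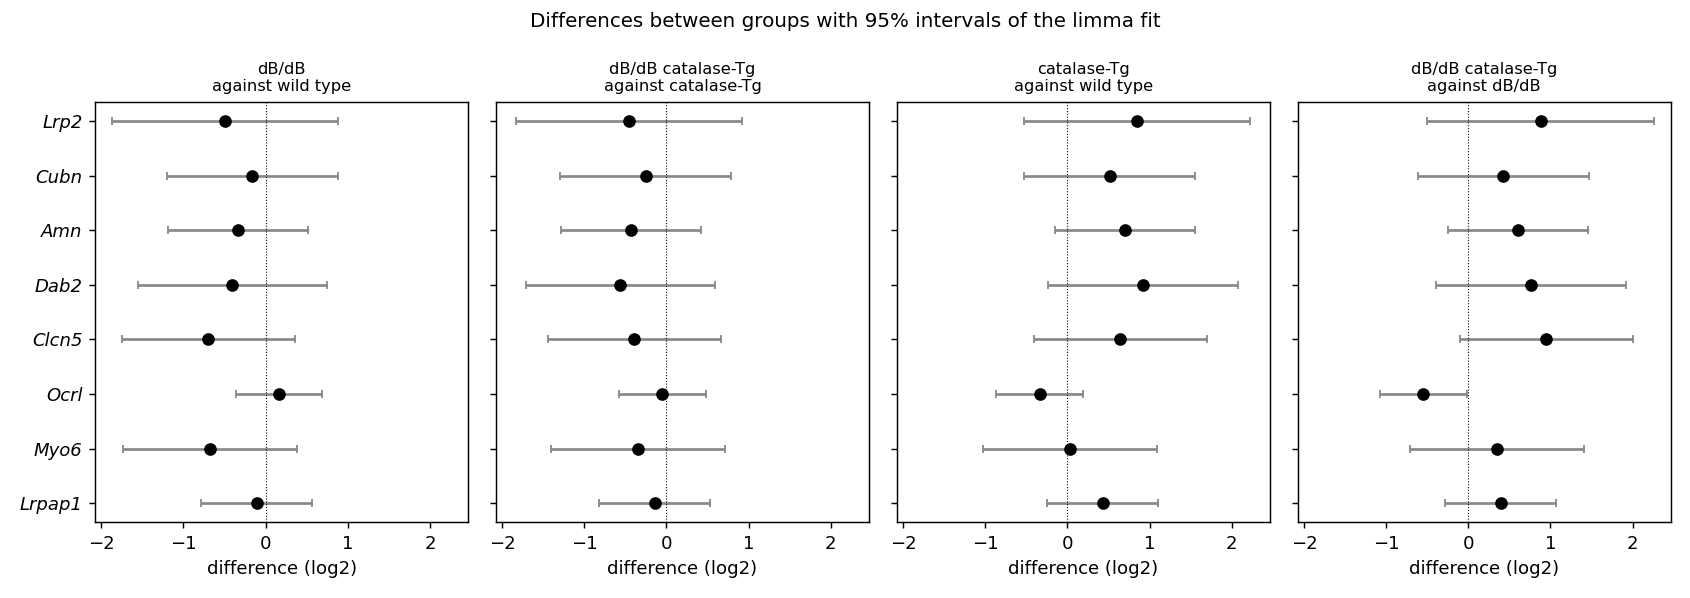
Differences (horizontal axis, log2, first named group minus the other) for the 8 genes in the 4 comparisons, with the 95% interval of the limma fit. The interval includes 0 in all 4 comparisons for every gene except Ocrl in dB/dB catalase-Tg against dB/dB, where it ran from -1.08 to -0.02.

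Among mice with the transgene, the mutation was compared in dB/dB catalase-Tg against catalase-Tg. All 8 genes were below 0, from -0.56 for Dab2 to -0.05 for Ocrl, with a median of -0.37 beside -0.10 over all probe sets, of which 62.1% were below 0. Taking each gene's probe set of highest mean, none passed limma's threshold, where 0.0276% of all probe sets did. None of these had an unadjusted p under 0.05, where 6.86% did. Among these probe sets Dab2 was the gene whose groups did not overlap, lower in 3 of 3 arrays. Over all probe sets, 9.35% lay lower and 6.67% higher without overlap. The Dab2 means were 11.66 ± 0.51 in dB/dB catalase-Tg and 12.23 ± 0.07 in catalase-Tg (SD, n = 3). Their difference of -0.56 had an SE of 0.52 (limma adjusted p = 0.827). Lrp2 differed by -0.45 (SE 0.62), Amn by -0.43 (SE 0.38) and Clcn5 by -0.39 (SE 0.47). By its other probe sets past the filter, Clcn5 differed by -0.066 and -0.35. Between samples of the same number in these 2 groups, Clcn5 differed by -0.45, -0.38 and -0.35 and Lrp2 by -0.68, -0.14 and -0.55. Deviations from group means correlated with r of 0.43 to 0.61 between samples of the same number. Between different numbers r reached 0.56, so the number does not mark clear pairs. With the number as a block in a fit of these groups alone, the adjusted p was 0.343 for Clcn5 and 0.351 for Lrp2, and 0 of all probe sets passed limma's threshold, against 5 without the block. Markers of other cells lay the opposite way in this comparison: 11 of 12 loop of Henle and distal tubule markers past the filter were above 0 (median 2.22, 9 with an unadjusted p under 0.05), as were 14 of 14 endothelial (median 1.13) and 7 of 7 podocyte markers (median 1.52). The loop of Henle and distal tubule score was 0.15 to 0.97 in dB/dB catalase-Tg and -2.12 to -1.40 in catalase-Tg. With the score of podocyte, endothelial and mural markers as a covariate, the difference became 0.15 for Lrp2 and 0.17 for Cubn and was -0.075 for Dab2, while with the proximal tubule score it stayed at -0.45 for Lrp2, -0.25 for Cubn and -0.56 for Dab2. Averaged over both transgene states, the dB/dB difference was -0.54 for Clcn5 (adjusted p = 0.468), -0.48 for Dab2 and -0.47 for Lrp2, and none of the 8 passed, where 0.0165% of all did (0 with an unadjusted p under 0.05, where 12.2% were). In this average the other Clcn5 probe sets past the filter gave -0.23 and -0.30. Without wild type 1, Dab2 passed at -0.86 (adjusted p = 0.0283), where 6.87% of all probe sets passed. Without the 3 arrays named above, Lrp2, Dab2 and Clcn5 passed (-0.85, -0.73 and -0.78), where 19.4% of all did.

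The transgene by itself was compared in catalase-Tg against wild type. For 7 of the 8 genes the catalase-Tg mean was higher, led by Dab2 at 0.92 (SE 0.52, adjusted p = 0.607), Lrp2 at 0.84 (SE 0.62, adjusted p = 0.688), Amn at 0.70 (SE 0.38, adjusted p = 0.598) and Clcn5 at 0.65 (SE 0.47). Smaller differences, 0.18 and 0.38, came from the other Clcn5 probe sets past the filter. The second Lrp2 probe set gave 0.88 and the third 1.28, the latter with an unadjusted limma p of 0.013. The other Dab2 probe sets gave 1.10, 1.02 and 1.32. Ocrl was lower by -0.34 (SE 0.24) and Myo6 lay at 0.03 (SE 0.48). The median was 0.58, beside 0.78 for proximal tubule markers (22 of 24 above 0) and -0.02 over all probe sets (47.5% above 0). By the probe set of highest mean, no gene passed and none had an unadjusted p under 0.05. Over all probe sets, 0.022% passed and 9.15% had such a p. The groups overlapped for each gene, where 13.5% of probe sets did not, 5.74% being higher and 7.8% lower. With the sample number as a block in a fit of these groups alone, Clcn5 had an unadjusted p of 0.0382, none of the 8 genes passed and 0 of all probe sets did, against 4 without the block. Both this comparison and dB/dB against wild type use the same wild type arrays, so their opposite signs are not independent of each other. Without wild type 1, Lrp2 became -0.02 and Cubn -0.15. Without wild type 2 and 3, 5 genes passed, Lrp2, Cubn, Amn, Dab2 and Lrpap1 at 1.22 to 2.58, where 12% of all did. That fit leaves wild type 1 as the sole wild type array, which is assumed to vary like the other groups. The proximal tubule score was -0.34 to 0.76 in catalase-Tg and -1.99 to 0.56 in wild type, and with it as a covariate the difference was 0.16 for Lrp2, 0.37 for Dab2 and 0.14 for Clcn5.

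What the transgene does in mice with the mutation was asked by dB/dB catalase-Tg against dB/dB. Again 7 of 8 genes had the higher mean with the transgene, with a median difference of 0.52. Beside this stood medians of 0.82 for proximal tubule markers (24 of 24 above 0) and -0.02 over all probe sets (48.3% above 0). Clcn5 differed by 0.95 (SE 0.47, adjusted p = 0.636), Lrp2 by 0.88 (SE 0.62, adjusted p = 0.646), Dab2 by 0.76 (SE 0.52), Amn by 0.61 (SE 0.38) and Cubn by 0.43 (SE 0.47). For Clcn5 the other probe sets past the filter gave 0.52 and 0.27, so the size of 0.95 belongs to its probe set of highest mean. None of the 8 genes passed limma's threshold, which 0.00551% of all probe sets did. Ocrl, at -0.55 (SE 0.24, adjusted p = 0.636), was the 1 gene with an unadjusted p under 0.05 by its probe set of highest mean. Of all probe sets, 7.5% reached that level. The third Lrp2 probe set, at 0.95, had an unadjusted limma p of 0.0497. By the probe set of highest mean, Lrp2 and Dab2 were higher in 3 of 3 arrays without overlap, where 4.87% of probe sets were. Ocrl was lower in 3 of 3, where 11.1% were. For Lrp2 the gap was narrow, 11.88 on dB/dB catalase-Tg 1 against 11.75 on dB/dB 3. The second Lrp2 probe set overlapped, and so did every other Dab2 probe set, the fourth giving -0.31. The third Lrp2 probe set and the second of Cubn and of Lrpap1 were higher without overlap.

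Which arrays entered the fit changed the count here. Without dB/dB catalase-Tg 1 alone, Lrp2 was at 1.20, Dab2 at 1.05 and Clcn5 at 1.32, and none passed (lowest adjusted p = 0.190, for Clcn5). With dB/dB catalase-Tg 1, catalase-Tg 1 and wild type 1 all left out, Lrp2 (1.20, adjusted p = 0.00968), Dab2 (1.05, adjusted p = 0.00489), Clcn5 (1.32, adjusted p = 0.00464) and Myo6 (0.83, adjusted p = 0.0450) passed, where 27.8% of all probe sets did. With array weights, 7 of 8 passed, Myo6 being the exception, where 38.5% of all did. The weights were 0.172 for dB/dB catalase-Tg 1, 0.227 for wild type 1 and 0.287 for catalase-Tg 1, against 0.629 to 3.03 for the other arrays. On the scores, dB/dB catalase-Tg 1 lay at -0.46 for proximal tubule and 1.55 for endothelial markers, and dB/dB catalase-Tg 2 and 3 at 0.82 and 0.80 and at -0.88 and -1.24. The dB/dB arrays lay at -0.38, -0.62 and -0.29 for proximal tubule markers. With the proximal tubule score as a covariate, the difference was 0.12 for Lrp2, 0.16 for Dab2, -0.06 for Cubn and 0.39 for Clcn5. With the score of podocyte, endothelial and mural markers, it was -0.14 for Lrp2, -0.06 for Dab2 and -0.28 for Cubn.

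**Figure D3:**
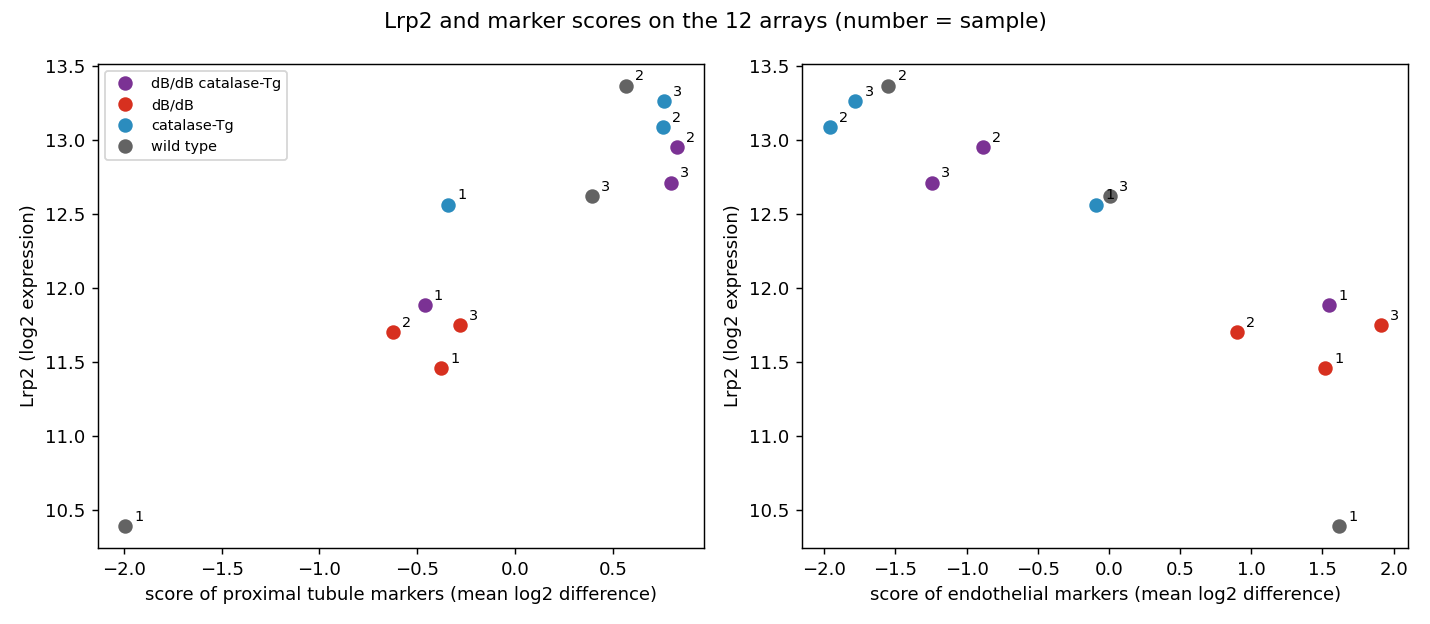
Lrp2 log2 expression (vertical axis) on the 12 arrays against the score of proximal tubule markers (left) and of endothelial markers (right), both horizontal axes in mean log2 difference, coloured by group and numbered by sample. Wild type 1, at 10.39, lies at a proximal tubule score of -1.99, and the 3 dB/dB arrays lie with dB/dB catalase-Tg 1 in both panels.

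Averaged over mice with and without the mutation, the transgene difference was 0.86 for Lrp2 (SE 0.44, adjusted p = 0.320), 0.84 for Dab2 (SE 0.37, adjusted p = 0.263), 0.80 for Clcn5 (SE 0.34, adjusted p = 0.253), 0.66 for Amn (SE 0.27, adjusted p = 0.248) and -0.44 for Ocrl (SE 0.17, adjusted p = 0.224). Amn, Dab2, Clcn5 and Ocrl had an unadjusted p under 0.05 by their probe sets of highest mean, where 18.1% of all probe sets had. None of the 8 passed after adjustment, where 0.0276% of all did. The other Clcn5 probe sets past the filter gave 0.35 and 0.32, with unadjusted limma p of 0.20 and 0.33. The second Lrp2 probe set gave 0.83 and the third 1.12, with unadjusted limma p of 0.098 and 0.0040. The other Dab2 probe sets gave 0.99, 1.06 and 0.50, with unadjusted limma p of 0.032, 0.12 and 0.29. Cell markers differed in the same contrast, podocyte markers by a median of -2.89 (7 of 7 below 0), endothelial by -1.46 (14 of 14) and loop of Henle and distal tubule by -1.41 (11 of 12). Proximal tubule markers lay the other way, by a median of 0.72 (23 of 24 above 0). With the proximal tubule score as a covariate the transgene difference was 0.14 for Lrp2, 0.26 for Dab2 and 0.26 for Clcn5. With the score of podocyte, endothelial and mural markers it was -0.11 for Lrp2, 0.059 for Dab2 and 0.17 for Clcn5. Array weights brought 5 of the 8 past the threshold, where 26.4% of all passed, and leaving out the 3 arrays of low weight brought 3, where 20.5% of all did. Without wild type 2 and 3, 7 passed, where 18.6% of all did. Whether the transgene acts differently with the mutation was asked by the interaction. Its values ran from -0.21 to 0.32 over the 8 genes, each with adjusted p = 1.00 in limma, and 0 had an unadjusted p under 0.05, where 1.64% of all probe sets had. With SEs of 0.34 to 0.88, the interaction was measured too loosely to tell small differences.

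Among themselves the genes varied to different degrees. Likeness was taken as the mean absolute difference, over the 12 arrays, between values centred on each gene's mean, and is a description without a test. Lrp2 and Dab2 differed by 0.14 on average, against a median of 0.71 between Lrp2 and the other genes past the filter. Cubn lay 0.25 from Dab2, 0.25 from Lrpap1, 0.29 from Amn and 0.32 from Lrp2, against a median of 0.49. Amn and Lrpap1 lay 0.20 apart. Ocrl lay 0.93 from Lrp2 and 0.67 from Cubn, farther in each case than that gene's median. Lrpap1 lay 0.48 from Lrp2 and 0.44 from Myo6, beyond its own median of 0.42, and Amn lay 0.54 from Myo6, beyond its median of 0.53. Over the 9744 genes compared, the nearest to Lrp2 were Hnf4a, a nuclear receptor of proximal tubule and liver, at 0.13, then Bdh2, Mgat3 and Ly6g2 at 0.14 each, with Dab2 the fifth. Nearest to Cubn were Ptprk at 0.11, Fggy at 0.12, Idh1 at 0.13, F13b at 0.14 and Fbp1, a gluconeogenic enzyme that is on the proximal tubule marker list, at 0.15. None of the 8 genes is on that list. All these values share the same arrays and the same differences in cell makeup.

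**Figure D4:**
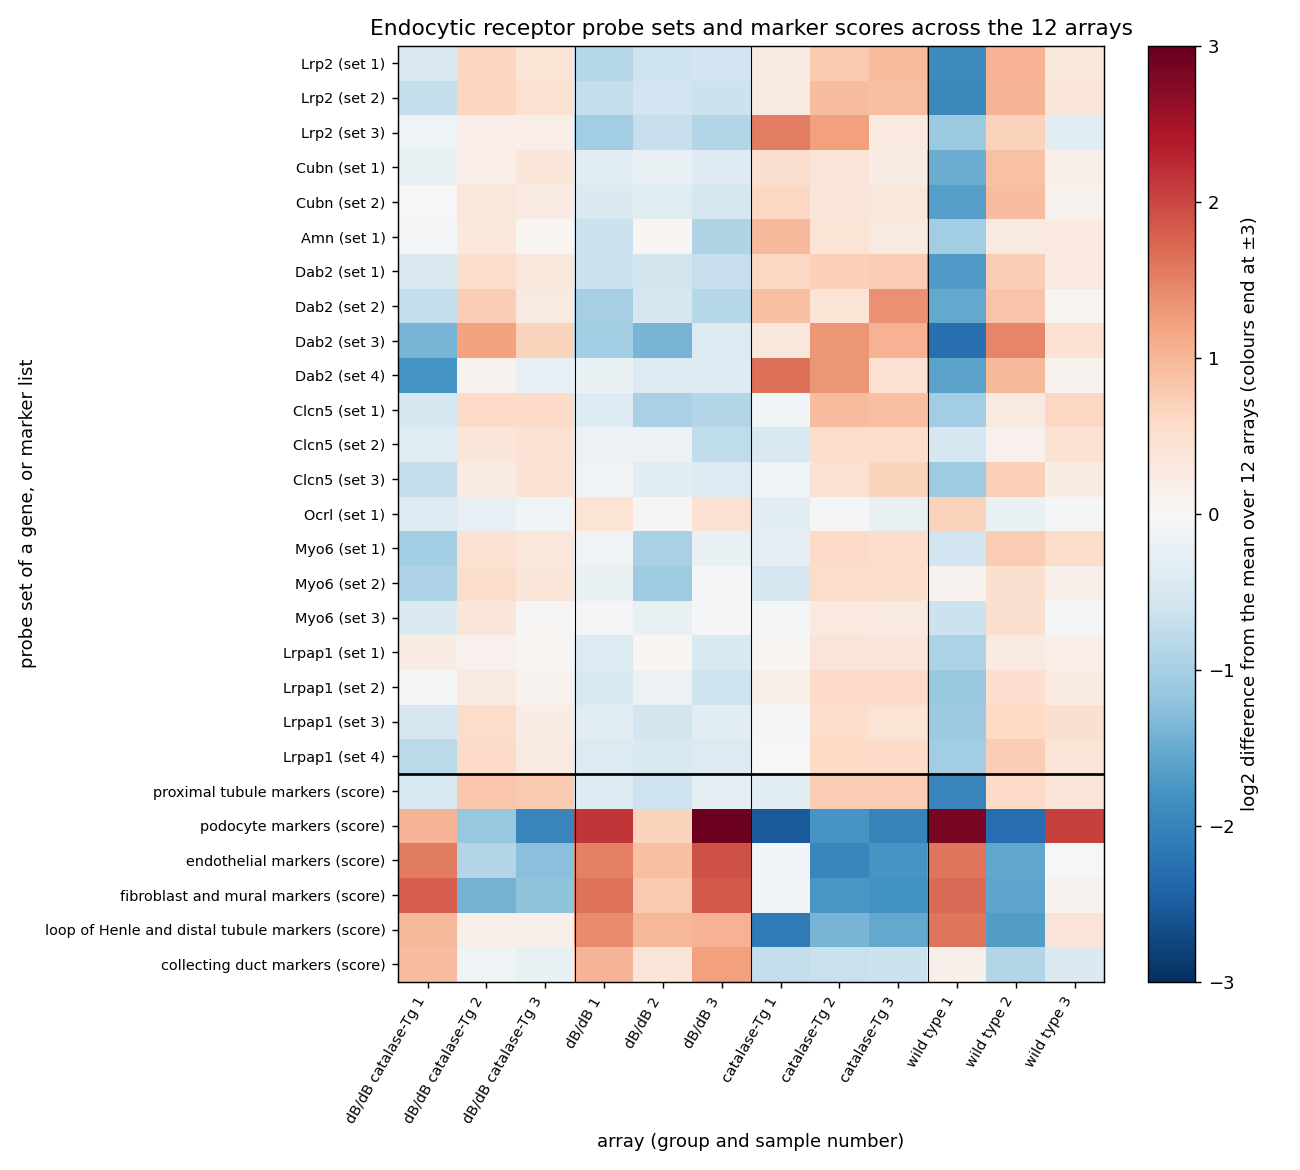
Each row is a probe set past the filter (numbered by mean signal within its gene) or a marker score, and each column an array, ordered by group. Colour gives the log2 difference from the mean over 12 arrays. Rows of Lrp2, Cubn, Dab2 and Lrpap1 are lowest on wild type 1 in most probe sets, where the proximal tubule score is -1.99 and the podocyte score 2.84.

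The wider endocytic pathway was followed through lists of 126 genes, of which 114 were named on the array and 111 passed the filter. None of the 111 passed limma's threshold in any of the 7 contrasts. In dB/dB against wild type 3 had an unadjusted p under 0.05, in dB/dB catalase-Tg against catalase-Tg 7, in catalase-Tg against wild type 6 and in dB/dB catalase-Tg against dB/dB 2, in each case a smaller share than among all probe sets. In the average dB/dB effect 14 had one, and in the average transgene effect 19, where 12.2% and 18.1% of all probe sets did. Lysosomal proteins, which degrade what is taken up, lay lower with the mutation for 20 of 21 genes without the transgene (median -0.27) and 19 of 21 with it (median -0.34). Over all probe sets 62% and 62.1% did, with medians of -0.11 and -0.10. Proximal tubule markers lay lower for 13 of 24 and 15 of 24, with medians of -0.01 and -0.18. With the transgene 18 of 21 lysosomal genes lay higher in mice without the mutation (median 0.40) and 19 of 21 in dB/dB mice (median 0.28). Over all probe sets 47.5% and 48.3% did, each with a median of -0.02. Proximal tubule markers lay higher for 22 of 24 and 24 of 24, with medians of 0.78 and 0.82. The lysosomal score was -0.48 to 0.24 in dB/dB catalase-Tg, -0.46 to -0.22 in dB/dB, 0.12 to 0.51 in catalase-Tg and -0.54 to 0.27 in wild type. The lowest array was again wild type 1 and the next dB/dB catalase-Tg 1. Npc2, the lysosomal cholesterol carrier, read 9.75, 10.15 and 9.95 in dB/dB catalase-Tg and 10.76, 10.45 and 10.44 in catalase-Tg, a difference of -0.60 (SE 0.18, adjusted p = 0.621). Hexa, a subunit of hexosaminidase, differed by -0.81 (SE 0.30) in that comparison, and Ctsa, protective protein cathepsin A, by 0.68 (SE 0.25, adjusted p = 0.532) in catalase-Tg against wild type. Without dB/dB catalase-Tg 1 Hexa differed by -0.50, and without wild type 1 Ctsa differed by 0.35.

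The clathrin machinery spread less. Its 24 genes had medians of -0.06 in dB/dB against wild type, -0.14 in dB/dB catalase-Tg against catalase-Tg, 0.07 in catalase-Tg against wild type and -0.02 in dB/dB catalase-Tg against dB/dB, and its score stayed within -0.18 to 0.18 on the 12 arrays. Epn1, an epsin that helps bend the coated membrane, read 6.62, 7.14 and 7.30 in dB/dB catalase-Tg, 6.33, 6.53 and 6.48 in dB/dB, 7.85, 7.59 and 7.59 in catalase-Tg and 6.46, 6.98 and 7.23 in wild type. The highest 3 arrays were those of catalase-Tg, above wild type without overlap, where 5.74% of probe sets were, and the difference was 0.79 (SE 0.24, adjusted p = 0.486). Its relative Epn2 differed by -0.85 in dB/dB catalase-Tg against dB/dB (SE 0.29, adjusted p = 0.636), and Eps15, a scaffold of coated pits, by -0.79 in dB/dB catalase-Tg against catalase-Tg (SE 0.32, adjusted p = 0.700), or by -0.44 without dB/dB catalase-Tg 1.

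Endosome fusion and recycling genes had medians of -0.17 and -0.18 for the mutation without and with the transgene, and of -0.03 for the transgene in either state, over 31 genes. Hgs, which sorts ubiquitinated cargo, differed by -0.45 in dB/dB against wild type (SE 0.15, adjusted p = 0.767) and by -0.47 in dB/dB catalase-Tg against catalase-Tg (SE 0.15, adjusted p = 0.677). Vps26a, a retromer subunit, differed by -0.51 (SE 0.21) and -0.37 (SE 0.21) in the same comparisons. Ehd3, which is on the endothelial marker list as well, differed by -2.66 in catalase-Tg against wild type (SE 1.16), by -1.42 without wild type 1 and by -4.15 without wild type 2. Among 19 acidification genes the medians were -0.23 in dB/dB against wild type, -0.075 in dB/dB catalase-Tg against catalase-Tg, -0.042 in catalase-Tg against wild type (9 above 0, 10 below) and 0.15 in dB/dB catalase-Tg against dB/dB. Clcn7, the lysosomal relative of Clcn5, differed by 0.44 in catalase-Tg against wild type (SE 0.20) and by 0.40 in dB/dB catalase-Tg against dB/dB (SE 0.20). The proton pump subunit Atp6v0b differed by -0.47 (SE 0.21) in dB/dB against wild type and Atp6v1g1 by 0.39 (SE 0.23) in catalase-Tg against wild type. These catalase-Tg differences were 0.24 for Clcn7 and 0.23 for Atp6v1g1 without wild type 1.

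Other receptors and cargo-handling genes, 16 past the filter, had medians of -0.27 in dB/dB against wild type and 0.16 in dB/dB catalase-Tg against dB/dB. Tfrc, the transferrin receptor, read 11.57, 10.65 and 11.18 in dB/dB catalase-Tg, 11.24, 11.62 and 10.66 in dB/dB, 9.01, 10.13 and 10.29 in catalase-Tg and 12.25, 9.62 and 11.20 in wild type. It was thus highest on wild type 1, where Lrp2 was lowest, and differed by 1.32 in dB/dB catalase-Tg against catalase-Tg (SE 0.60, adjusted p = 0.726). Scarb2, a lysosomal membrane receptor, likewise differed by 1.05 there (SE 0.48). Cyp24a1, the enzyme that inactivates vitamin D, which the tubule takes up through megalin, read 11.65, 11.02 and 10.77 in dB/dB, against 7.29, 10.02 and 11.15 in wild type. These groups overlapped, since wild type 3 exceeded the lower 2 dB/dB arrays, and the difference was 1.66 (SE 0.77, limma adjusted p = 0.767). Without wild type 1 it was 0.56.

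**Figure D5:**
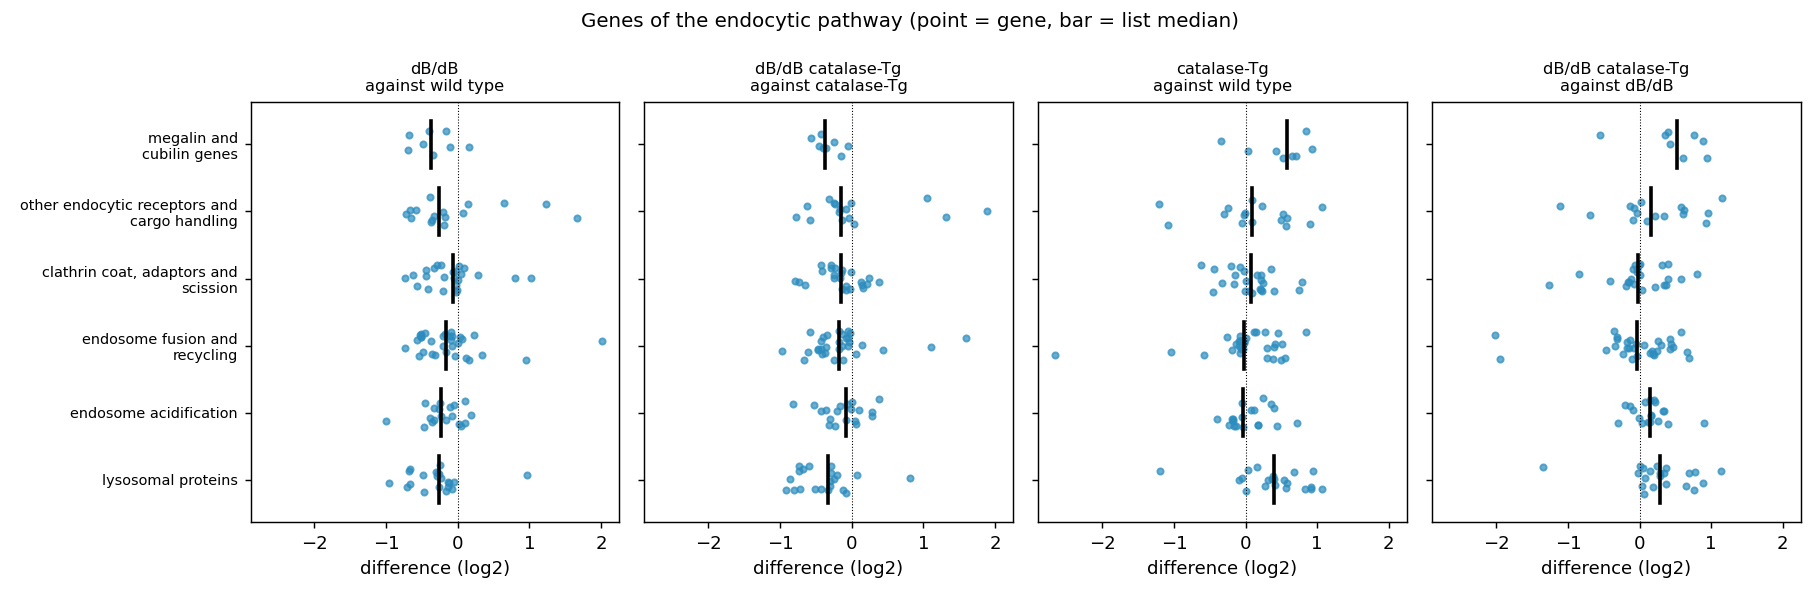
Differences (horizontal axis, log2, first named group minus the other) of each gene past the filter in the megalin and cubilin list and in 5 lists of the endocytic pathway, in the 4 comparisons. Points are genes and bars list medians. The median of lysosomal proteins is -0.27 in dB/dB against wild type and 0.28 in dB/dB catalase-Tg against dB/dB, and no gene shown passed the threshold.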

How the data were processed

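Gene expression in proximal tubules was measured with 12 Affymetrix mouse arrays, 3 per group. Each deposited value is the log2 signal of 1 probe set on 1 array, which the authors made with GCRMA, per the submitters' processing notes, which also name limma; versions are not given in the sources used here. GCRMA corrects background and normalizes between arrays, and it pools dim probe sets at a floor of 2.302, so differences of dim genes are understated. The values were used as deposited. Precision is set by the number of arrays.

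The table lists 45101 probe sets, and 64 of them, array controls, were dropped. GEO's annotation gave 1 symbol for 34945 of the others, several for 932 and none for 9160, and those with several symbols were not used to name genes. All 8 genes matched the RefSeq table of GRCm38.p6 by identifier, with 0 symbols changed. Probe sets above 4 on at least 3 of 12 arrays, 18144 in all, entered limma 3.58.1 (R 4.3.3) in a single fit of all 12 arrays with a mean for each group, Benjamini-Hochberg adjustment over them all and a threshold of 0.05, in 7 contrasts. The code was tested on simulated data.

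The 8 genes, the lists, the arrays left out and the alternatives were chosen with earlier results of these data known, and the promoter motifs after the sequences had been seen. The genes named are the 8, up to 3 of smallest p per pathway list, and the 5 nearest to Lrp2 and to Cubn. Symbols of the same gene under an older name were not matched. The groups share sample numbers, which the labels do not explain. Deviations from group means correlated over 0.1 in all 3 same-number pairs between catalase-Tg and wild type (r 0.20 to 0.40) and between dB/dB catalase-Tg and catalase-Tg (r 0.43 to 0.61), so these comparisons were also fitted with the number as a block, an alternative added after seeing the data. Different-number pairs reached r of 0.36 and 0.56 there. The comparisons with the dB/dB group did not meet this.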

Additional observations from a re-analysis of the deposited data

How the results depend on the processing

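Across 30 alternatives, 1320 values of single genes were recomputed, of which 1258 kept the direction of the difference given above and 40 passed the threshold. Many of the kept directions were fixed in advance. Other filters, the trended spread, 1 probe set per gene, the 2 groups alone and the replicate block leave a difference as it is. So does leaving out an array of a group outside a comparison of 2 groups. The 1258 is therefore no measure of stability. The count of the 8 genes past the threshold was 0 in every contrast and stayed 0 under other filters, the trended spread, median centring, quantile normalization, 1 probe set per gene, the mean of a gene's probe sets, the 2 groups alone, the replicate block and either covariate. Without the 3 arrays of low weight (dB/dB catalase-Tg 1, catalase-Tg 1, wild type 1), it became 5 in dB/dB against wild type, 4 in dB/dB catalase-Tg against dB/dB, 3 in the average dB/dB effect and 3 in the average transgene effect. With array weights it became 7 in dB/dB catalase-Tg against dB/dB and 5 in the average transgene effect, and without wild type 2 and wild type 3 it became 5 in catalase-Tg against wild type and 7 in the average transgene effect. Leaving out 1 array at a time gave 0 to 1 in the average dB/dB effect and 0 elsewhere. The cause was not tested.

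Among all probe sets, counts past the threshold ran over the alternatives from 0 to 4875 in dB/dB against wild type, 0 to 2180 in catalase-Tg against wild type, 0 to 6989 in dB/dB catalase-Tg against dB/dB, 0 to 883 in dB/dB catalase-Tg against catalase-Tg, 0 to 143 in the interaction, 0 to 3515 in the average dB/dB effect and 1 to 4785 in the average transgene effect. The fits on all 12 arrays called 0, 4, 1, 5, 1, 3 and 5.

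With the podocyte, endothelial and mural covariate, the direction turned in dB/dB against wild type for Cubn (0.32), Dab2 (0.16), Lrp2 (0.21) and Lrpap1 (0.13). It turned in catalase-Tg against wild type for Cubn (-0.12), Lrp2 (-0.074) and Myo6 (-0.59), and in dB/dB catalase-Tg against dB/dB for Cubn (-0.28), Dab2 (-0.061), Lrp2 (-0.14) and Myo6 (-0.33). It turned in dB/dB catalase-Tg against catalase-Tg for Cubn (0.17), Lrp2 (0.15), Lrpap1 (0.060) and Myo6 (0.054). In the average dB/dB effect it turned for Cubn (0.25), Dab2 (0.044), Lrp2 (0.18), Lrpap1 (0.094) and Ocrl (-0.059), and in the average transgene effect for Cubn (-0.20), Lrp2 (-0.11) and Myo6 (-0.46). With the proximal tubule covariate it turned for Myo6 in catalase-Tg against wild type (-0.46), in the average transgene effect (-0.32) and in dB/dB catalase-Tg against dB/dB (-0.19), and for Cubn in dB/dB catalase-Tg against dB/dB (-0.064).

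Without wild type 2 and wild type 3, dB/dB against wild type turned for Amn (0.56), Clcn5 (0.31), Cubn (1.17), Dab2 (1.08), Lrp2 (1.24), Lrpap1 (0.68), Myo6 (0.14) and Ocrl (-0.38), and the average dB/dB effect for Amn (0.062), Cubn (0.46), Dab2 (0.26), Lrp2 (0.39), Lrpap1 (0.27) and Ocrl (-0.22). Without the 3 arrays of low weight, catalase-Tg against wild type turned for Cubn (-0.20) and Myo6 (-0.11). A second Myo6 probe set gave -0.062 there, and the fourth Dab2 probe set -0.31 in dB/dB catalase-Tg against dB/dB.

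Leaving out 1 array at a time, values ran in dB/dB against wild type from -0.83 to 0.35 for Cubn, -1.15 to 0.077 for Dab2, -1.36 to 0.13 for Lrp2, -0.51 to 0.11 for Lrpap1 and -0.0062 to 0.43 for Ocrl. They ran in catalase-Tg against wild type from -0.15 to 1.03 for Cubn, -0.024 to 1.46 for Lrp2 and -0.38 to 0.30 for Myo6, and in dB/dB catalase-Tg against catalase-Tg from -0.63 to 0.13 for Myo6 and -0.11 to 0.025 for Ocrl. In the average dB/dB effect they ran from -0.54 to 0.049 for Cubn and -0.027 to 0.19 for Ocrl, and in the average transgene effect from -0.014 to 0.43 for Myo6.

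Samples of the same number deviated from their group means with r of -0.18 to 0.71 over 18 pairs, 13 of them over 0.1. In catalase-Tg against wild type and dB/dB catalase-Tg against catalase-Tg every same-number pair was over 0.1. There the replicate block within the groups compared (chosen after seeing the data) changed no call of the 8 genes. Each number occurs once per group, so a block leaves every difference as it was and no direction could turn. With the replicate block over all 12 arrays, where the differences again could not change, none of the 8 genes passed. Clcn5 in dB/dB catalase-Tg against dB/dB had a limma adjusted p = 0.346. Over all probe sets the block gave 0 calls in the interaction, against 1 without it, and 1 in the average dB/dB effect, against 3 without it. Signal over background limits Ocrl, which could not be tested above a filter of 6.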
